A study of Rattus norvegicus with 11 samples.

Results

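White and brown adipocyte markers were described array by array in rat adrenal lesions and normal adrenal glands, since fat tissue surrounds the adrenal and can be carried along in a dissected gland. The set was 10 genes chosen by symbol: Adipoq, Fabp4, Plin1, Cidec, Cidea, Ucp1, Lep, Retn, Cfd and Pparg. Of these, 9 were measured among the 14506 genes named by a probe set with 1 gene symbol, each by 1 probe set. Cidea, a lipid droplet protein of brown adipocytes, had no such probe set and was not analysed here. The lesions were 7 adrenal lesions from untreated rats heterozygous for the mutation that the labels call p27Kip1 (Cdknb1), the gene of a cyclin-dependent kinase inhibitor, and arose in the MENX rat model of multiple neuroendocrine tumours. The normal glands were 4 adrenals of untreated wild-type rats. All animals had the mixed background Sprague–Dawley white eye/Wistar–Kyoto and specific-pathogen-free housing. Lesion 1 came from a female of 23 months, lesions 2 and 3 from males of 21 months, lesions 4 and 5 from females of 13 months and lesions 6 and 7 from males of 13 months. Normal glands 1 and 2 came from a female and a male of 24 months, and normal glands 3 and 4 from a female and a male of 12 months. The labels name no dissection or microdissection step, nor how much cortex, medulla, capsule or attached fat each piece held.

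Adipocytes store triglyceride in a lipid droplet coated by perilipins and CIDE proteins, and release hormones called adipokines. The nuclear receptor gene Pparg drives this programme together with C/EBP factors. White adipocytes hold 1 large droplet and release leptin and adiponectin, while brown adipocytes hold many small droplets and burn lipid through the mitochondrial uncoupler UCP1. Periadrenal fat of rodents contains brown as well as white adipocytes. Several of these genes are also used elsewhere. Fabp4 and Pparg are expressed in macrophages and Fabp4 in capillary endothelium, and perilipin coats the cholesterol ester droplets of steroid-producing cells. In bulk tissue, fewer adipocytes and less RNA per adipocyte cannot be told apart.

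Values are log2 expression per probe set, so that 1 unit is a doubling. They compare arrays for 1 probe set and not the levels of different genes. Array medians lay between 4.91 and 5.01. Markers of adrenal cortex and of chromaffin cells, the catecholamine-producing cells of the medulla, were bright on every array. Means of the cortex list ran from 9.40 to 11.01 in lesions and from 10.15 to 10.67 in normal glands. Means of the chromaffin list ran from 9.34 to 10.51 in lesions and from 9.87 to 10.28 in normal glands. Lesion 1 stood apart, with a median correlation of 0.972 with the other arrays, against 0.980 to 0.988 for each other array, and with the lowest cortex mean. Cfd and Fabp4 were above the array median on 11 of 11 arrays, Adipoq and Retn on 9, Cidec on 7, Plin1 on 3, Pparg on 2, Ucp1 on 1 and Lep on 0.

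The promoters of 5 members are shown because 4 of these genes varied together over the arrays and the last did not. Each is the RefSeq window of GRCr8 from 250 bases before to 50 bases after the annotated start, read 5′ to 3′ on the strand of the gene. Capitals mark matches, on either strand, to AGGTCA (bound by nuclear receptors), TTGCNNAA (bound by C/EBP), the CCAAT box (which reads ATTGG on the other strand) and TATAAA (the TATA box).
Adipoq (chr11:91240120-91240419, minus strand): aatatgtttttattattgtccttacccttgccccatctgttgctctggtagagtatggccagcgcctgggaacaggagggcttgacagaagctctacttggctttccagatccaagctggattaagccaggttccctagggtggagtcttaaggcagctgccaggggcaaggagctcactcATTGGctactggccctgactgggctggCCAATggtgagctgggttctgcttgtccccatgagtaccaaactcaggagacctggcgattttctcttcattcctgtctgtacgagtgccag
Plin1 (chr1:143086099-143086398, minus strand): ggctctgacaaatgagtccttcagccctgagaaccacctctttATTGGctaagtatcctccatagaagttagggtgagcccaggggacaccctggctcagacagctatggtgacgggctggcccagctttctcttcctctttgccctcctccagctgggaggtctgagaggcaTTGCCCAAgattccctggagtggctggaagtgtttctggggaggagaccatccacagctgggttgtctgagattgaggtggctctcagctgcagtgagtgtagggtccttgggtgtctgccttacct
Cidec (chr4:148137066-148137365, minus strand): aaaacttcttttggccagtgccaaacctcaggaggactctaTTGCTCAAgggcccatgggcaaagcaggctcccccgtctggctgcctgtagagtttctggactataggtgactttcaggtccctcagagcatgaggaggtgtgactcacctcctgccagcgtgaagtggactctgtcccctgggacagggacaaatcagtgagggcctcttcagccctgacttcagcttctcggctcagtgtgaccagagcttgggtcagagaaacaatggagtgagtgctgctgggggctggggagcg
Retn (chr12:6508524-6508823, plus strand): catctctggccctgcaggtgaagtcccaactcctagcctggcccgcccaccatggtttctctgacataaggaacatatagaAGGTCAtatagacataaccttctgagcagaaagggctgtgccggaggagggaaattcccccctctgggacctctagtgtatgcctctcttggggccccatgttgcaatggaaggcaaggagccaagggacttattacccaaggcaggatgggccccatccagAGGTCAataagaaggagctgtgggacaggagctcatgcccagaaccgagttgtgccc
Ucp1 (chr19:41721372-41721671, minus strand): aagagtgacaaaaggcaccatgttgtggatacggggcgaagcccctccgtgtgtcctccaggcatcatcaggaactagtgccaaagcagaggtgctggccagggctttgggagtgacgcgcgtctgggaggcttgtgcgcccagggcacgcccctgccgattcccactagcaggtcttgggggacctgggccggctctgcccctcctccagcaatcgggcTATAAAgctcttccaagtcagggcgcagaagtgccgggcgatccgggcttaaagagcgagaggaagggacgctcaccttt

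A promoter entry was found for 8 of the 9 measured members, with 9 windows because Pparg has 2. No member window held AGGTCANAGGTCA, the direct repeat bound by PPAR with RXR, which 0.0538% of all 33469 promoter windows of that length held. AGGTCA by itself was found in Retn alone among the member windows, 169 and 7 bases before the start, and in 16.2% of all windows. TTGCNNAA was found in 4 of the 9 windows, those of Plin1, Cidec, Lep and the second Pparg promoter, and in 10.6% of all. CCAAT was found in 4 of the 9 windows and in 37.5% of all. The Ucp1 window held TATAAA 30 bases before the start, as did 14.2% of all windows at any position. These matches describe the letters of short windows and not bound sites.

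The lipid droplet genes spread widely over the lesions. Cidec, whose product fuses droplets into the large droplet of white adipocytes, read 4.60, 5.18 and 5.90 in lesions 1 to 3 and 7.26, 6.98, 4.70 and 6.31 in lesions 4 to 7, against 4.69, 4.81, 5.18 and 5.91 in normal glands 1 to 4. Lesions 4, 5 and 7 were above every normal gland, lesion 1 was below every normal gland, and the other lesions lay among them. Plin1, the perilipin that guards the droplet against lipases, read 4.34, 4.29 and 4.68 in lesions 1 to 3 and 5.37, 5.52, 4.24 and 5.37 in lesions 4 to 7, against 3.94, 4.54, 4.31 and 4.96 in the normal glands. The same 3 lesions, 4, 5 and 7, were again above every normal gland. Fabp4, the cytosolic fatty acid carrier of adipocytes, read 7.68, 8.98 and 9.23 in lesions 1 to 3 and 9.84, 9.93, 7.73 and 9.08 in lesions 4 to 7, against 7.65, 8.28, 8.99 and 8.40 in the normal glands. For this gene 4 lesions, 3, 4, 5 and 7, were above every normal gland.

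Among the adipokines, Adipoq, which encodes adiponectin and is made almost only by adipocytes, had the widest range. It read 4.38, 5.02 and 5.87 in lesions 1 to 3 and 7.80, 7.62, 5.28 and 6.88 in lesions 4 to 7, against 4.72, 5.47, 6.48 and 5.94 in the normal glands. Lesions 4, 5 and 7 were above every normal gland and lesion 1 below all of them. The lowest and highest lesion differed 10.7-fold, a range of 3.42 log2 units over the lesions that 0.318% of all 29214 probe sets equalled or passed. Retn, which encodes resistin, an adipokine of rodent fat, read 4.74, 5.24 and 5.82 in lesions 1 to 3 and 6.00, 5.90, 4.91 and 5.66 in lesions 4 to 7, against 4.98, 5.10, 5.32 and 5.77 in the normal glands. Lesions 3, 4 and 5 were above every normal gland and lesions 1 and 6 below all of them. Lep, which encodes the satiety hormone leptin, stayed at or below 4.90 in lesions and 4.80 in normal glands and was under the array median on every array. Cfd, which encodes complement factor D (adipsin), read 8.05, 7.21 and 7.33 in lesions 1 to 3 and 8.52, 8.45, 6.64 and 7.54 in lesions 4 to 7, against 7.94, 7.37, 7.77 and 6.90 in the normal glands. Its order differed from that of the other adipokines, since lesion 1 and normal gland 1, low for Adipoq, were among its 4 highest arrays.

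Pparg, the receptor gene of the adipocyte programme, had the smallest range of the measured members. Over the 11 arrays this range was 0.80 log2 units, which 40% of all probe sets equalled or passed. Pparg ran from 4.47 to 5.21 in lesions, with a median of 4.66, against 4.41 to 4.59 in normal glands. Lesions 4 and 5, at 5.19 and 5.21, were the highest, and 6 of 7 lesions were above every normal gland.

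Ucp1, the brown marker of the set, stood out on a single array. It read 5.44 in lesion 3 and between 3.15 and 3.84 in the other lesions, against 3.25 to 3.91 in the normal glands. Outside lesion 3 the lesions and normal glands overlapped, and every value was under the array median. Of the 14 other brown adipocyte genes measured, 0 were highest in lesion 3, where 9.98% of all named genes were. With so few genes, 0 is near that share. Dio2, which encodes the deiodinase that activates thyroid hormone in brown fat, read 3.64 in lesion 3. This was just under its highest value, 3.66 in lesion 5. Dio2 read 2.96 to 3.66 over all lesions, against 2.96 to 3.46 in normal glands. White markers were not at their highest in lesion 3 either, with Adipoq at 5.87 and Plin1 at 4.68. Adrb3, the beta-3 adrenergic receptor gene of adipocytes, was highest in lesion 3 at 4.46, with 3.82 to 4.16 in the other lesions and 3.69 to 3.90 in normal glands. Elovl6, a fatty acid elongase gene, was also highest in lesion 3 at 7.49, with 4.94 to 6.93 in the other lesions and 5.58 to 6.07 in the normal glands. For Elovl6, 5 of 7 lesions were above every normal gland. Most genes of the lists that hold Adrb3 and Elovl6 did not peak in lesion 3. In that lesion 3 of 14 other adipokines and receptors and 2 of 19 synthesis genes were highest. The first share was 21.4% and the second 10.5%, beside 9.98% of all named genes. Adrb3, Dio2 and Elovl6 were singled out after their values were seen.

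**Figure D1:**
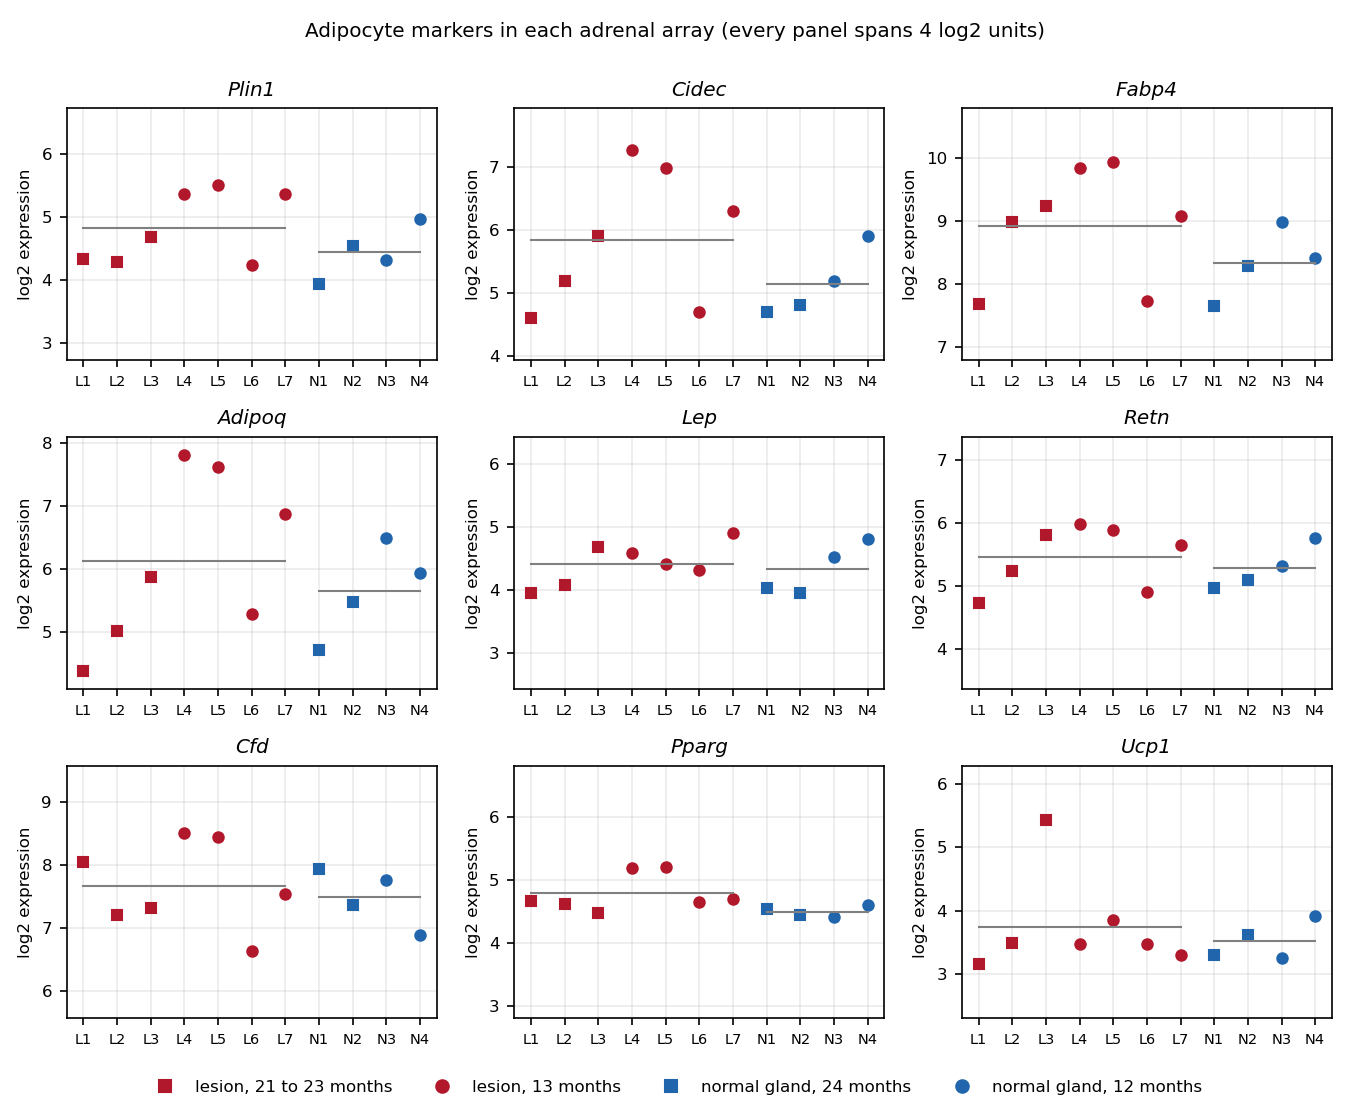
Log2 expression (vertical axis) of the 9 measured markers on each array (horizontal axis, lesions L1 to L7 left and normal glands N1 to N4 right). Squares are rats of 21 months or more, circles are rats of 12 or 13 months and grey lines are group means. Lesions 4 and 5 are at the top for Adipoq and Cidec, and lesion 3 alone is high for Ucp1 at 5.44.

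Set against normal glands, the lesions had higher mean levels of all 9 measured members, but no difference passed the test, and those of Lep, Cfd and Ucp1 turned below 0 under some alternatives. Cidec averaged 5.85 ± 1.07 over the 7 lesions and 5.15 ± 0.55 over the 4 normal glands (mean ± SD, as for the means that follow), a difference of 0.70 (95% interval -0.41 to 1.81, limma adjusted p = 0.815), and of 0.46 without lesion 4. Adipoq averaged 6.12 ± 1.33 in lesions and 5.65 ± 0.75 in normal glands, a difference of 0.47 (-0.93 to 1.87, limma adjusted p = 0.920). This difference was 0.16 without normal gland 1 and 0.76 without lesion 1. Fabp4 differed by 0.59 (-0.37 to 1.56) and Plin1 by 0.39 (-0.25 to 1.03), and by 0.37 and 0.22 without normal gland 1. Pparg had the smallest adjusted p of the set, with 4.78 ± 0.29 in lesions and 4.49 ± 0.09 in normal glands, a difference of 0.29 (-0.03 to 0.61, limma adjusted p = 0.693, unadjusted 0.069). Ucp1 differed by 0.22, and by -0.06 without lesion 3. The intervals of Adipoq and Cidec reach well beyond a doubling in the lesions, so these arrays do not bound their differences closely.

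Of the 9 measured members, 0 were called at an adjusted p under 0.05, where 0.065% of all probe sets (19 of 29214) were. Also 0 of 9 had an unadjusted p under 0.05, where 7.71% of all probe sets did. No member had all lesions above all normal glands, which held for 0.479% of probe sets. The median difference of the members was 0.29, beside -0.003 over all named genes. Within the older rats alone, Adipoq averaged 5.09 in lesions and 5.09 in normal glands, and within the younger rats 6.90 in lesions and 6.21 in normal glands.

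No gene of the other adipocyte lists was called in lesions against normal glands. An unadjusted p under 0.05 was met by 7.71% of all probe sets. It was met by 3 of 10 uptake genes, all higher in lesions. The droplet and lipolysis list had 1 of 14 and the transcription factors 1 of 10, both lower in lesions. In both directions went 3 of 19 synthesis genes, 3 of 14 brown genes other than Ucp1 and 2 of 14 other adipokines and receptors. Of the beige genes 0 of 4 met it. In the lipid droplet and lipolysis list 8 of 14 measured genes were above 0, with a median difference of 0.06. Its largest difference was that of Lipe, the hormone-sensitive lipase gene, at 0.57 (limma adjusted p = 0.806). The fatty acid and triglyceride synthesis list had 13 of 19 above 0 and a median of 0.12, led by Dgat1, which makes triglyceride, at 0.98 (limma adjusted p = 0.744). In the uptake list, with a median of 0.21 over 10 genes, Angptl4, an inhibitor of lipoprotein lipase, averaged 7.25 ± 0.75 in lesions and 5.42 ± 0.37 in normal glands, a difference of 1.84 (limma adjusted p = 0.171). For Angptl4, 6 of 7 lesions were above every normal gland, the exception being lesion 1 at 5.70. Adipogenic transcription factors had a median of -0.04 over 10 genes and other adipokines and receptors 0.06 over 14.

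Brown adipocyte genes other than Ucp1 had a median difference of 0.03 over 14 measured genes, with 9 above 0 and 0 called. The largest of the 9 was that of Kcnk3, a potassium channel gene of brown fat and of the adrenal cortex, at 0.50 (95% interval 0.06 to 0.93, limma adjusted p = 0.573). Ppargc1a, the coactivator gene of mitochondrial biogenesis, read 3.67 to 4.65 in lesions and 4.86 to 5.07 in normal glands, so that all 7 lesions were below all normal glands, as for 0.695% of probe sets. Its difference was -0.59 (95% interval -0.99 to -0.19, limma adjusted p = 0.388). Cox8b, a cytochrome c oxidase subunit gene of brown fat and muscle, averaged 8.39 ± 0.75 in lesions and 9.53 ± 0.63 in normal glands, a difference of -1.14 (limma adjusted p = 0.469). The 4 measured beige genes had a median of 0.14. The cortex list had a median of 0.11 over 11 genes and the chromaffin list -0.09 over 11. Lists of the other tissues that a dissected gland could hold were near 0, with medians of -0.13 for adipose and capsule stroma, 0.02 for endothelium, 0.02 for macrophages, -0.05 for skeletal muscle and -0.08 for mesothelium, and none of their genes was called.

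**Figure D2:**
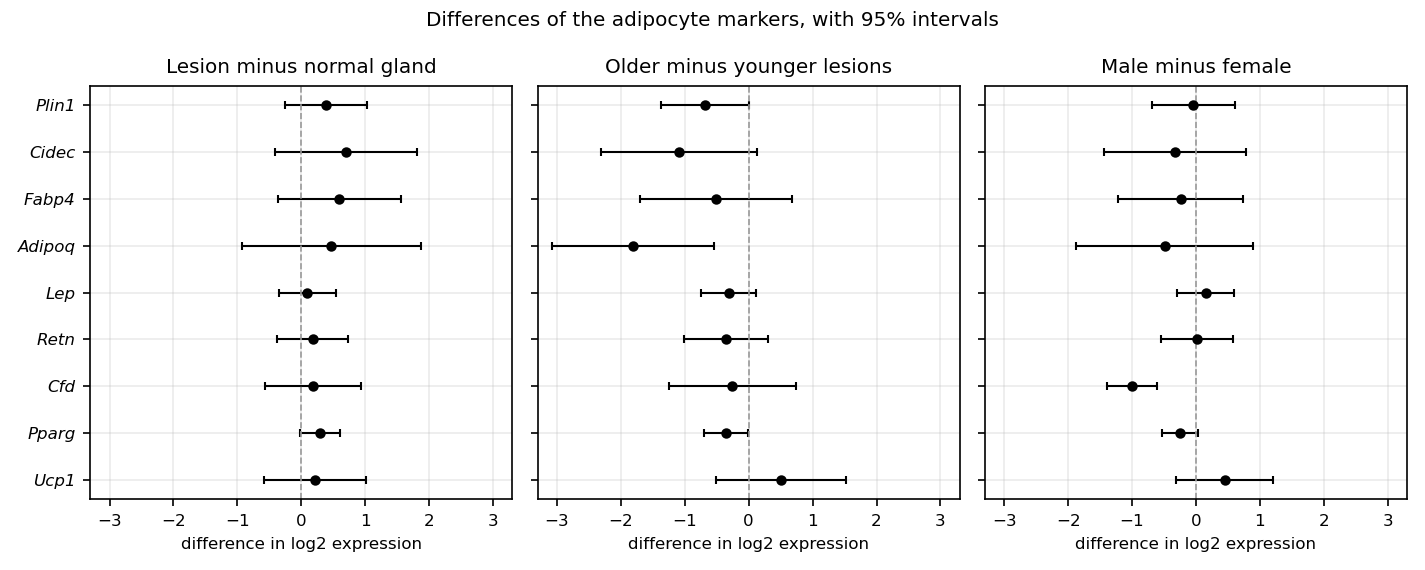
Differences in log2 expression (horizontal axis) for each marker (rows), as lesion minus normal gland, older minus younger lesions and male minus female, with points for the fitted difference and bars for its 95% interval. All 9 points of the first panel are above 0 with intervals that include 0, Adipoq is lowest in the second panel at -1.80, and Cfd is at -0.999 in the third.

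Within the lesions, most members had lower means in the older rats, again without a called member. Adipoq averaged 5.09 ± 0.75 in lesions of 21 to 23 months (SD, n = 3) and 6.90 ± 1.15 in lesions of 13 months (SD, n = 4), a difference of -1.80 (95% interval -3.07 to -0.53, limma adjusted p = 0.397, unadjusted 0.010), and of -1.45 without lesion 1. No member had all older lesions below all younger ones, which held for 4.55% of probe sets. For Adipoq, the younger lesion 6 at 5.28 lay below the older lesion 3 at 5.87. Cidec differed by -1.09 (-2.30 to 0.13, limma adjusted p = 0.563), Plin1 by -0.69 and Pparg by -0.35. In all, 8 of 9 members were below 0 with a median of -0.35, beside -0.01 over all named genes. Ucp1 was the exception at 0.51, and at -0.20 without lesion 3. Of the members 0 of 9 were called, where 0.0103% of all probe sets were, and 2 of 9 had an unadjusted p under 0.05, where 9.6% did.

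Among normal glands, 8 of 9 members had lower means at the older age. Adipoq averaged 5.09 ± 0.53 at 24 months and 6.21 ± 0.38 at 12 months (SD, n = 2 each), a difference of -1.12 (95% interval -2.79 to 0.54), and of -0.74 without normal gland 1. Lep differed by -0.68 (-1.24 to -0.12, unadjusted p = 0.023 and adjusted p = 1.000 by limma). No member was called, nor was any probe set (0%), while 2.87% of probe sets had an unadjusted p under 0.05. The age difference of Adipoq in lesions minus that in normal glands was -0.68 (-2.78 to 1.41), -1.22 without lesion 6 and -0.31 without normal gland 2. None of the 9 such differences was called, nor was any probe set (0%, with 2.83% at an unadjusted p under 0.05).

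Markers of the gland's own cells are given beside these age differences, and no gene of any list was called. In older against younger lesions the cortex list had 11 of 11 genes below 0 with a median of -0.64, and the chromaffin list 9 of 11 above 0 with a median of 0.37. In each of these lists 5 of 11 genes had an unadjusted p under 0.05, where 9.6% of all probe sets did. So did 6 of 19 synthesis, 3 of 14 droplet and lipolysis and 3 of 14 other adipokine and receptor genes. The counts were 2 of 14 for other brown genes, 2 of 10 for uptake, 2 of 10 for transcription factors and 0 of 4 for beige genes. Lesion 1 carried much of the cortex difference: without it the median was -0.22 with 10 of 11 genes below 0, while that of the chromaffin list was 0.29 with 11 of 11 above 0. Among adipocyte lists, synthesis had 14 of 19 genes below 0 and a median of -0.28, and uptake 7 of 10 and -0.21. Without lesion 1 these medians were -0.18 and 0.06, so that of uptake changed sign. Droplet and lipolysis genes had 10 of 14 below 0 (median -0.15), other brown genes 11 of 14 (-0.13) and transcription factors 7 of 10 (-0.05). These became 10 of 14 (-0.07), 8 of 14 (-0.04) and 6 of 10 (-0.10) without lesion 1. Other adipokines and receptors went the other way, with 9 of 14 above 0 (median 0.11), as did beige genes with 3 of 4 (0.21). Without lesion 1 the medians of these last lists were -0.03 and 0.07. Stroma had 5 of 9 below 0 and a median of -0.07, which was 0.07 without lesion 1. Whether the makeup of the dissected piece plays a part in the age differences of the fat markers was not tested.

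Over the 11 arrays a core of the markers varied together. Adipoq and Cidec correlated at r = 0.916 (Spearman's rho = 0.925, permutation adjusted p = 0.00144 and 0.00198), and at 0.788 without the 2 arrays farthest from the Adipoq median. Cidec and Retn correlated at 0.937 (rho = 0.952), and Plin1 and Cidec at 0.924 (rho = 0.834). Adipoq correlated with Fabp4 at 0.869, with Plin1 at 0.866 and with Retn at 0.852 (permutation adjusted p = 0.00374, 0.00486 and 0.00486). All 10 pairs among Adipoq, Cidec, Fabp4, Plin1 and Retn were called by both r and rho. Of the 36 pairs of measured members, 13 were called by r after Benjamini-Hochberg adjustment over the 36, all of them positive, and 33 were above 0, with a median r of 0.615.

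Of the 13 pairs, 3 joined Lep or Pparg to a gene of that core by r and not by rho. Lep and Retn correlated at 0.774 (rho = 0.700, permutation adjusted p = 0.0257 and 0.060) and at 0.798 without the arrays farthest from the Lep median. Plin1 and Pparg correlated at 0.720 (rho = 0.527, permutation adjusted p = 0.0312 and 0.213) and at 0.646 without the arrays farthest from the Plin1 median. Cidec and Pparg correlated at 0.772 (rho = 0.451, permutation adjusted p = 0.0251 and 0.314) but at 0.112 without the arrays farthest from the Cidec median. Cidec and Lep were called by rho alone (0.743, permutation adjusted p = 0.0326). Adipoq and Pparg correlated at 0.680 (permutation adjusted p = 0.052), and at -0.186 without the 2 farthest arrays, which were lesions 4 and 5, so that the relation rests on those arrays. Adipoq and Lep correlated at 0.662 (permutation adjusted p = 0.064) and at 0.852 without those arrays, Adipoq and Cfd at 0.464 and Adipoq and Ucp1 at 0.112. In no pair that held Ucp1 or Cfd was the correlation called.

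Among the 7 lesions alone 34 of 36 pairs were above 0 with a median r of 0.680, and 6 were called by exact permutation over 5040 orderings. Adipoq and Cidec reached 0.972 there (rho = 0.964, exact permutation adjusted p = 0.025 and 0.0333), and Adipoq and Plin1 0.948 (rho = 0.750). The 4 normal glands are too few for a correlation. Lesion 4 was the highest array for 4 members and lesion 5 for 3, so that 7 of 9 members (77.8%) were highest in one of these 13-month female lesions, where 23.1% of all named genes were. So were 8 of 11 cortex genes, 3 of 5 muscle genes, 4 of 7 endothelial genes and 7 of 14 other brown genes, against 2 of 14 droplet and lipolysis genes and 0 of 11 chromaffin genes. Lesion 1 was the lowest array for 4 members and normal gland 1 for 2.

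**Figure D3:**
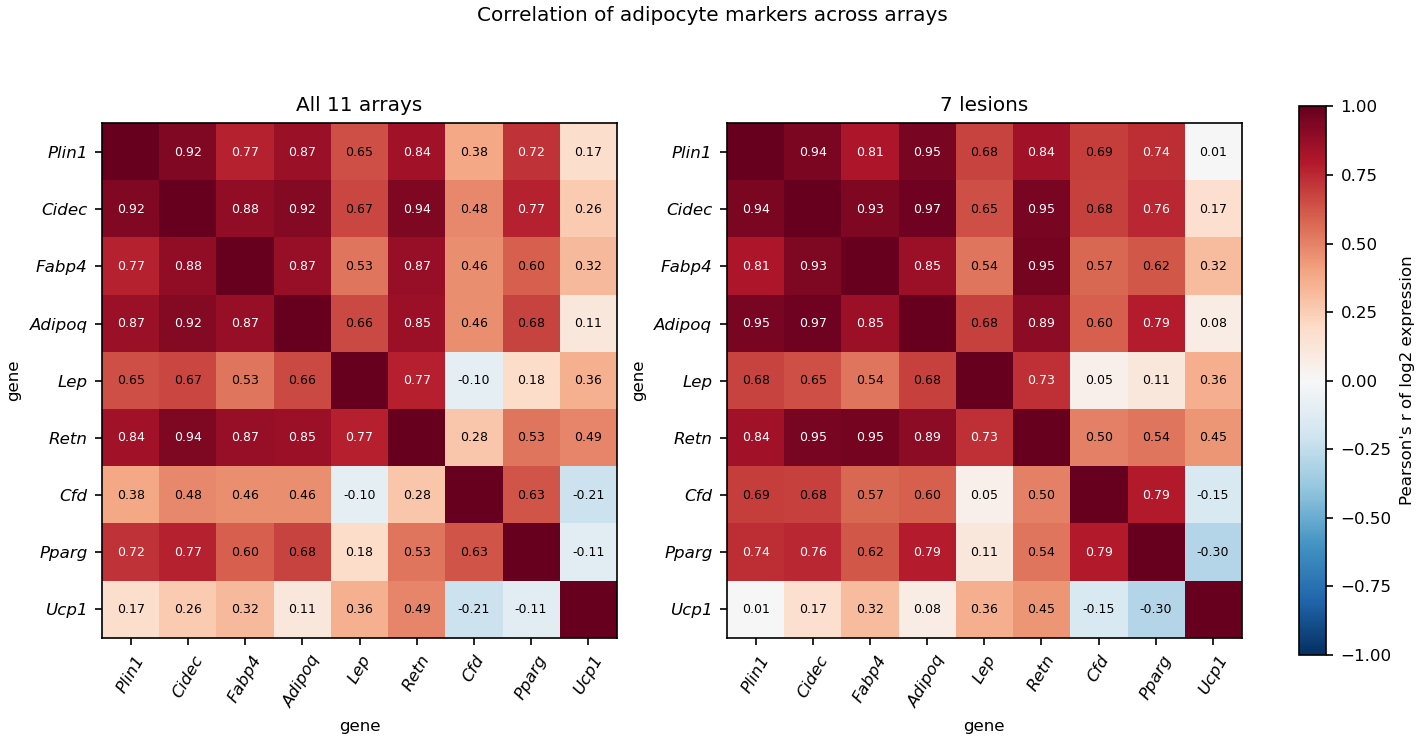
Pearson's r of log2 expression between each pair of measured markers (rows and columns are genes, colour and number give r), over all 11 arrays on the left and the 7 lesions on the right. The block of Plin1, Cidec, Fabp4, Adipoq and Retn is above 0.76 in both panels, and the Ucp1 row is at or below 0.49.

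The genes whose pattern was most like that of Adipoq were sought among all named genes, as a description. Car3, a carbonic anhydrase abundant in adipocytes and also present in muscle and liver, came first at r = 0.972 over 11 arrays and 0.985 over the 7 lesions. It read 6.62, 7.55 and 7.99 in lesions 1 to 3 and 9.82, 9.72, 7.04 and 8.94 in lesions 4 to 7, against 6.78, 7.61, 9.15 and 8.46 in the normal glands. Lesions 4 and 5 were again the highest and lesion 1 the lowest. The next were Anxa11, Grifin, Cib1, Dclre1b, Rbms2, Rbpjl and Or10al7, at 0.919 to 0.909. For Ucp1 the nearest was Gnat3, at 0.956 over 11 arrays but 0.620 without lesion 3. The other 7, Or52j3b, Hpcal4, Or52ac1, Lyzl1, Apoa5, Slc51a and Klk1c10, ran from 0.951 to 0.928, and all 8 were highest in lesion 3 with values of 5.05 or less.

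Adipoq also went with the adrenal's own markers, in a family of 10 relations chosen after the values were seen. With the mean of the cortex list it correlated at r = 0.775 (rho = 0.800, permutation adjusted p = 0.016 and 0.0235), at 0.720 without lesions 4 and 5 and at 0.767 without lesion 1. With the chromaffin list the correlation was -0.814 (rho = -0.809, permutation adjusted p = 0.0121 and 0.0235), -0.595 without lesions 4 and 5 and -0.761 without lesion 1. Over the 7 lesions alone it was 0.766 for cortex (rho = 1.000, exact permutation adjusted p = 0.0020 and 0.0040). For chromaffin cells it was -0.888 in the lesions (rho = -0.964, exact permutation adjusted p = 0.0119 and 0.0139). Over the 6 males alone it was 0.511 for cortex and -0.515 for chromaffin cells. Older age, lower cortex markers and lower Adipoq stood together in these arrays, and their parts were not tested. The stroma list had r = -0.238 with Adipoq, and 0.279 without lesions 4 and 5. With the macrophage list r was -0.189, and -0.654 without lesions 4 and 5. Over the 6 males it was 0.718 for stroma and -0.700 for macrophages. For the endothelial list r was 0.593 (rho = 0.318, permutation adjusted p = 0.108 and 0.684), and 0.096 without lesions 4 and 5. Over the 7 lesions the endothelial list had r = 0.733 with Adipoq (exact permutation adjusted p = 0.159), and -0.072 without lesions 4 and 5.

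**Figure D4:**
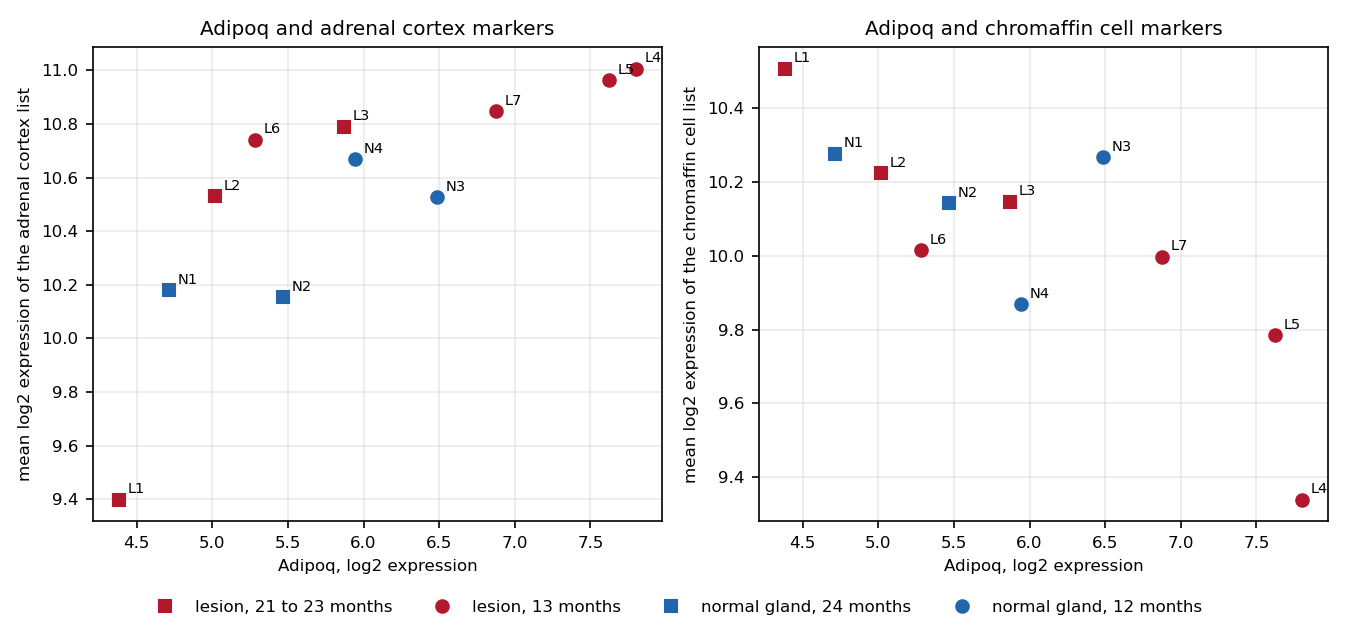
Adipoq log2 expression (horizontal axis) against the mean log2 expression of the adrenal cortex list (left) and of the chromaffin cell list (right) on each array, lesions L1 to L7 in red and normal glands N1 to N4 in blue, squares for rats of 21 months or more. Lesion 1 has the lowest Adipoq, the lowest cortex mean at 9.40 and the highest chromaffin mean at 10.51, and lesion 4 is at the other end of each.

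Cfd was the only measured member whose levels separated by labelled sex. The 6 males ran from 6.64 to 7.54 and the 5 females from 7.77 to 8.52, with no overlap, and all males were below all females for 0.106% of probe sets. Cfd averaged 7.16 ± 0.33 in males (SD, n = 6) and 8.15 ± 0.33 in females (SD, n = 5). The fitted difference with group in the model was -0.999 (95% interval -1.39 to -0.61), and it was not called over all probe sets (limma adjusted p = 0.438). The gene was singled out after this separation was seen. The difference was -1.16 within lesions and -0.72 within normal glands, and leaving out each array moved the fitted value between -1.10 and -0.88.

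The other members overlapped between the sexes. Adipoq averaged 5.74 ± 0.66 in males and 6.20 ± 1.60 in females, a difference of -0.49 (95% interval -1.88 to 0.90). This was -1.07 without lesion 1 and -0.093 without lesion 4. Pparg differed by -0.25 (-0.52 to 0.03), and by -0.16 without lesion 5. Ucp1 differed by 0.45 (-0.31 to 1.21), and by 0.15 without lesion 3. No member was called, nor was any probe set (0%), while 3.95% of probe sets and 1 of 9 members, Cfd, had an unadjusted p under 0.05.

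Macrophage markers stood beside Cfd in this split. Of the 8 measured macrophage genes 7 were lower in males, with a median difference of -0.35. Cd68, a lysosomal protein gene of macrophages, averaged 7.29 ± 0.17 in males and 7.99 ± 0.14 in females with no overlap, and Adgre1, which encodes a macrophage surface receptor, differed by -0.43. Lyz2, the lysozyme gene, differed by 0.02. All 7 endothelial genes were also lower in males, with a median of -0.23. The cortex list went the other way, with 11 of 11 genes above 0 and a median of 0.17. Stroma had 7 of 9 genes below 0 and a median of -0.08, beside 0.005 over all named genes. No gene of these lists was called. Over the 11 arrays Cfd correlated with the macrophage list mean at r = 0.700 (rho = 0.718, permutation adjusted p = 0.0424 and 0.0494) and with the endothelial list mean at 0.747 (rho = 0.700, permutation adjusted p = 0.0282 and 0.0494). Among the 6 males these correlations were 0.142 and -0.143. So few arrays, with a narrower range of Cfd, cannot settle whether either relation holds within that sex. None was computed over the 5 females, since correlations were given for 6 or more arrays. The part of these cells in the Cfd difference was not tested.

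**Figure D5:**
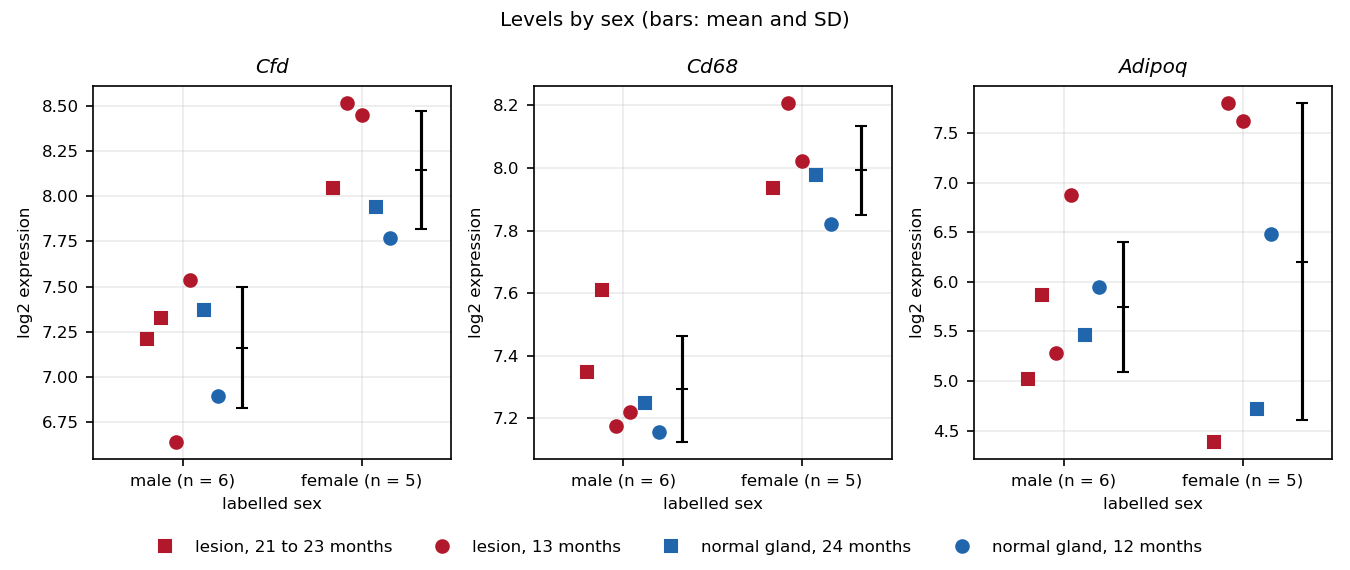
Log2 expression (vertical axis) of Cfd, Cd68 and Adipoq in males (left, n = 6) and females (right, n = 5), with lesions in red, normal glands in blue, squares for rats of 21 months or more, and bars for the mean and SD. Males and females do not overlap for Cfd or Cd68 and overlap for Adipoq.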

How the data were processed

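Total RNA of 11 rat adrenal samples was column-purified with DNase treatment, amplified from a small input and biotinylated, as the labels' protocols state. The values that the authors deposited are log2 expression per probe set. According to the submitters' processing notes they came from RMA, run in Affymetrix Expression Console 1.3.0.187. RMA gives arrays a common distribution, so a change shared by most genes cannot be seen. The sources used here do not name the genome build of the array. Scanner files were not used here, and neither brightness over background nor scan date was examined. An array has no read depth, so the number of arrays limits the precision. Each sample is labelled a biological replicate and was taken to be a different animal.

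The platform annotation gave 15310 of 29214 probe sets 1 gene symbol, 323 several and 13581 none. For genes with several probe sets the brightest stood for the gene. Differences were tested with limma 3.58.1 in R 4.3.3 (lmFit and eBayes, two-sided, Benjamini-Hochberg over all 29214 probe sets, called at an adjusted p under 0.05). Lesions were set against normal glands with group alone, ages in a group by age class model, and sexes with group in the model, always over all 11 arrays. Correlations used 100000 permutations, or all orderings of the 7 lesions. The plan named 45 pairs, and 36 were tested because Cidea was unmeasured. The members and lists were chosen with earlier results of these data known. Genes named were all members, up to 2 genes per list with the largest lesion minus normal difference and the 8 most like Adipoq and Ucp1. Genes outside this rule, Dio2, Adrb3, Elovl6, Kcnk3, Cd68, Adgre1 and Lyz2, were chosen after their values were seen. Alternatives were normalization, a filter on dim probe sets, the variance model, weights, covariates, age subsets, a replicate block and leaving out each array. Data were simulated with independent normal noise, each probe set keeping its spread within group and age class. On these data lesion against normal recovered 86 of 100 changes of 2-fold and 96 of 100 of 4-fold. Male against female recovered 84 and 99. Older against younger recovered 69 and 95 in lesions and 48 and 86 in normal glands, and the difference between the age differences 36 and 77. From 4 to 11 unchanged probe sets were called in these 5 comparisons. The changed probe sets were drawn at random, and the simulated spread left out age differences. These counts therefore do not give the recovery for the members, since some, such as Adipoq, ranged more widely than most probe sets. Figures were drawn with matplotlib 3.10.9.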

Additional observations from a re-analysis of the deposited data

Results flagged for a closer look

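Of 106 gene and group pairs examined over 53 genes, 21 held an array whose gap to the nearest other array of its group was large for the group's range by Dixon's criterion, which chance meets in about 1 of 20 groups. Of the 21, 9 were in lesion 1, 7 in lesion 3, 3 in normal gland 1 and 2 in normal gland 2.

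Ucp1 was the only one of the 9 measured members among them, at 5.44 in lesion 3, the highest of 7. In the same lesion, 6 of the genes picked for their likeness to Ucp1 met the criterion, which is relative to each gene's range. Lesion 3 and the next lesion read 3.70 and 3.41 for Gnat3, 3.16 and 2.95 for Or52j3b, and 4.93 and 4.35 for Hpcal4. They read 4.40 and 3.98 for Or52ac1, 5.05 and 4.50 for Apoa5, and 3.68 and 3.41 for Klk1c10, so some of these gaps were small. The choice of these genes by their correlation with Ucp1 favours such arrays.

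Lesion 1 was lowest of the 7 lesions for Lipe at 6.87, Angptl4 at 5.70, Cyp21a1 at 10.41 and Scarb1 at 10.37. It was the highest for Fitm2 at 10.03, Rbp4 at 7.81, Nnat at 12.63, Hoxc9 at 6.65 and Csf1r at 7.17. Among the 4 normal glands, gland 1 was lowest for Pck1 at 4.22, Or10al7 at 3.01 and Or52j3b at 2.89. Gland 2 was lowest for Nnat at 10.41 and highest for Lyzl1 at 3.06. Some of these gaps were small, since the nearest gland read 2.91 for Or52j3b, 3.04 for Lyzl1 and 3.16 for Or10al7.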

How the results depend on the processing

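No member was called under any alternative tried. Over 799 recomputed differences of members, 756 kept their direction and 43 reversed, and the lowest adjusted p was 0.197. The members under the median brightness (Plin1, Ucp1, Lep and Pparg) have no value without the dimmer probe sets. In lesion minus normal, Cfd became -0.14 with array weights and -0.13 in the arrays of 21 to 24 months alone, and Lep -0.11 and Ucp1 -0.064 in those of 12 and 13 months alone. In male minus female, Retn became -0.018 after renewed quantile normalization, -0.0039 after median centring and -0.079 with array weights, and Plin1 0.021 with age class as a covariate. The causes were not tested.

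With the replicate number as a block, Lep became -0.0020 and 3 probe sets were called. Lesions and normal glands of the same number correlated at 0.182, 0.150, 0.0728 and 0.209, and those of other numbers at -0.236 to 0.232. Lesions 1 to 4 and normal glands 1 to 3 each correlated best with their own number, and normal gland 4 with lesion 5, which is a hint from the data. The numbers were not taken to pair the samples, since 1 of the 4 values was under 0.1 and the labels name no pairing. Lesion 1 and normal gland 1 share sex and age class, as do lesion 2 and normal gland 2. Lesions and normal glands came from rats of different genotypes, so a shared number is not a shared animal. The 19 probe sets called in lesion against normal became 30 without the dimmer probe sets, 31 with array weights, 29 with sex and age class as covariates, 5 in the arrays of 12 and 13 months and 0 in those of 21 to 24 months, where fewer arrays were fitted.

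With each array left out in turn, those 19 became 5 (without normal gland 3) to 28 (without lesion 1), and 11 without lesion 7. The 3 called for older against younger lesions became 1 to 39 (without lesion 2), with 7 without lesion 3, 6 without lesion 6 and 1 without lesions 1 or 4 or any normal gland. The 0 called for age in normal glands and for the difference between the age differences became 0 to 1 (without normal gland 2 for both, and lesion 5 for the second). Leaving out a normal gland leaves 1 array at its age, assumed to vary like the others. Lesion minus normal ran from -0.064 to 0.35 for Ucp1, -0.034 to 0.25 for Lep and -0.018 to 0.35 for Cfd, and older minus younger lesions from -0.20 to 0.95 for Ucp1. Older minus younger normal glands ran from -0.46 to 0.20 for Ucp1, -0.11 to 0.76 for Cfd and -0.11 to 0.079 for Pparg. The difference between the age differences ran from -0.25 to 0.70 for Fabp4, -0.61 to 0.035 for Plin1, -0.83 to 0.073 for Cidec, -0.068 to 1.08 for Ucp1 and -0.12 to 0.42 for Retn. Male minus female ran from -0.63 to 0.0089 for Fabp4, -0.19 to 0.15 for Plin1, -0.73 to 0.028 for Cidec and -0.19 to 0.17 for Retn. The correlation of Adipoq and Ucp1 ran from -0.0090 to 0.36. From 10 to 15 of the 36 member pairs were called, against 13.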
